A study of Mus musculus with 37 samples.

Results

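Chemokines are small secreted or membrane-bound proteins that guide migrating cells through G protein-coupled receptors. The 10 genes described here are the CC ligands Ccl2, Ccl12, Ccl3 and Ccl4, the CXC ligands Cxcl1, Cxcl10, Cxcl12 and Cxcl14, and the transmembrane ligands Cx3cl1 and Cxcl16. They were chosen by name and found by Ensembl identifier among the 21975 genes of the deposited tables, and all 10 were present. Each was compared in both hemispheres among injured mice with epilepsy, injured mice without it and sham mice, and Ccl3 and Ccl4 were set beside transcripts of microglia.

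Astrocytes were isolated with ACSA-2 MicroBeads from the cortex of CD1 mice, which the labels call wild type CD31, at 4 months after a unilateral controlled cortical impact (CCI) or a sham operation. A CCI is a piston blow to the exposed brain. Injured mice that developed seizures, that is post-traumatic epilepsy, were termed PTE+ and injured mice that did not were termed PTE-. Sham mice had the craniectomy and the recording electrodes without the impact, so all groups carried both. The age of the mice is not in the labels. RNA sequencing of the ipsilateral cortex gave 4 PTE+, 10 PTE- and 5 sham libraries, and that of the contralateral cortex gave 4 PTE+, 9 PTE- and 5 sham libraries. Both hemispheres were sequenced in 17 mice (3 PTE+, 9 PTE- and 5 sham). Each library came from 1 hemisphere of 1 mouse. Mice are named as in the labels by a number that begins with 8 or 9. The meaning of that prefix is not stated, and it was treated as a possible batch.

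Levels are given in TPM, the share of a gene's transcripts among all transcripts of a library once transcript length is taken into account, so levels of different genes can be set beside each other. The sequencing depth cannot be read from TPM, so a value of 0 is only a gene listed at 0. Astrocyte markers were present in every library, with a summed level of 14898 to 22027 TPM over 12 genes in the ipsilateral table, so the label held. Transcripts of other cells were present too: the ipsilateral sums ranged from 548 to 4466 TPM over 10 oligodendrocyte markers, from 330 to 1641 TPM over 10 endothelial markers and from 76.6 to 724 TPM over 10 neuronal markers. In ipsilateral CCI against sham mice 2 of 12 tested astrocyte markers were called higher, Aqp4 and Gfap, the reactive astrocyte marker. Gfap was higher by 1.18 (limma p = 0.000523, adjusted p = 0.909) and Aqp4 by 0.39 (limma p = 0.0343). Mag, Mog and Opalin, 3 of 9 tested oligodendrocyte markers, were called lower. In this comparison 1.62% of all tested genes were called. The ipsilateral library of PTE- mouse 9_14 stood apart. It had 10727 genes above 0 TPM, against 15599 to 18319 in the other ipsilateral libraries and 15815 to 18534 in the contralateral ones. It listed 7 of the 10 chemokines at 0 and also Hprt, 1 of 12 housekeeping genes. It is therefore named, and values without it are given, wherever a result rests on it.

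In the adult brain, Cxcl12 and Cx3cl1 are expressed without injury, and their receptors Cxcr4 and Cx3cr1 act on progenitors, leukocytes and microglia. Ccl2, Ccl3, Ccl4, Cxcl1 and Cxcl10 are inducible ligands that draw monocytes, neutrophils or T cells and that depend on inflammatory signals such as NF-kB and interferons. Microglia are a well-known source of Ccl3 and Ccl4 in the brain, and these genes also respond when tissue is dissociated into single cells.

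The promoters of an inducible CC ligand and of 2 inducible CXC ligands are shown because their letters set apart the gene described most below, Cxcl10. RefSeq promoters (GRCm38.p6) were matched for 7 of the 10 genes, and those of Ccl2, Ccl4 and Cxcl16 were not. The bases before the RefSeq start site are given 5′ to 3′ on the gene's strand, at chr11:83649379-83649628 (minus strand) for Ccl3, chr5:90890995-90891240 (plus strand) for Cxcl1 and chr5:92348890-92349139 (minus strand) for Cxcl10. Capitals mark matches, on either strand, to the kappaB motif, to the core of the interferon-stimulated response element (ISRE, GAAA repeated after a gap of any 2 bases) and to the AP-1 motif TGANTCA.
Ccl3: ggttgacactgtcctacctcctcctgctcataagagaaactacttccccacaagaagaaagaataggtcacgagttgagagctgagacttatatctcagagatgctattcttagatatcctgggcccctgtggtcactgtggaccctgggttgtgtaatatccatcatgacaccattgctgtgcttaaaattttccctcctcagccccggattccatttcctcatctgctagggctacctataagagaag
Cxcl1: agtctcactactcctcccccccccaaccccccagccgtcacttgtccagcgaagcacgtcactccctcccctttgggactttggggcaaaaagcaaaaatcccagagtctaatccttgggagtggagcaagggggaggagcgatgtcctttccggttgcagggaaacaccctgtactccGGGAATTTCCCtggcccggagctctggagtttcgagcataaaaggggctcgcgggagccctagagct
Cxcl10: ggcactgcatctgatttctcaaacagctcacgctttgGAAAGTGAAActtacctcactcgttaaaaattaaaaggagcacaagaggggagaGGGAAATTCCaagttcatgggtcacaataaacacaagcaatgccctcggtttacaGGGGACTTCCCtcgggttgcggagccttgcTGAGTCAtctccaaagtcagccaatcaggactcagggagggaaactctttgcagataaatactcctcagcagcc
The Cxcl10 promoter held kappaB matches from base 159 to base 150 and from base 104 to base 94 before the start, an ISRE core match from base 213 to base 204 and an AP-1 match from base 74 to base 68. The kappaB matches nearest the start overlap each other on both strands. Bases are counted back from the RefSeq start site, and the Cxcl1 stretch stops 4 bases short of it, where the annotated gene begins. The Cxcl1 promoter held overlapping kappaB matches from base 71 to base 61, and the Ccl3 promoter held none of these motifs. Matches were searched in the 250 bases before the RefSeq start, of which 246 are printed for Cxcl1. Among 32817 promoters with this window, 7.25% held the kappaB motif, 2.97% the ISRE core and 6.75% the AP-1 motif. Of the promoters not shown, that of Cxcl14 held an ISRE core match from base 172 to base 163, and that of Cxcl12 held none of these motifs. The letters TATAAA of the TATA box, which 12.4% of promoters held, were found in those of Ccl12 and Cx3cl1. They lay from base 31 to base 26 in Ccl12 but from base 6 to base 1, directly at the start, in Cx3cl1. These are matches of letters and are not known binding sites in these cells.

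The 10 genes covered a wide range of levels, from above 200 TPM for Cxcl14 to about 1 TPM for Cxcl1 and Ccl4. The median over the 19 ipsilateral libraries was 344.7 TPM for Cxcl14, 38.04 TPM for Cxcl12, 20.5 TPM for Cx3cl1 and 7.24 TPM for Cxcl10. Cxcl16 followed with 2.9 TPM, Ccl12 with 2.22 TPM, Ccl2 with 1.41 TPM, Ccl3 with 1.29 TPM, Cxcl1 with 0.96 TPM and Ccl4 with 0.61 TPM. The constitutive ligands were thus the abundant ones, and the inducible ligands other than Cxcl10 lay near the bottom of the scale. In the 18 contralateral libraries the medians were 384.905 TPM for Cxcl14, 43.61 TPM for Cxcl12, 17.565 TPM for Cx3cl1, 3.625 TPM for Cxcl10, 2.77 TPM for Cxcl16 and at most 1.7 TPM for the other 5 genes.

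The order of the upper levels was larger than the spread between libraries. Cxcl14 exceeded Cxcl12 in 19 of 19 ipsilateral libraries by a mean of 3.14 on the log2(TPM + 1) scale (SD 0.443, permutation test, adjusted p = 4.5e-05 over 18 neighbouring pairs). Cxcl12 exceeded Cx3cl1 in 17 of 19 (adjusted p = 0.00015), Cx3cl1 exceeded Cxcl10 in 18 of 19 (adjusted p = 4.5e-05) and Cxcl10 exceeded Cxcl16 in 15 of 19 (permutation test, adjusted p = 0.00103). Below Cxcl16 no neighbours differed beyond their spread. In the contralateral cortex the first 3 steps also passed (permutation test, adjusted p at most 0.000108), while Cxcl10 and Cxcl16 did not differ beyond their spread (mean difference 0.41 on the log2 scale, permutation test, adjusted p = 0.118). The unadjusted p of 1e-05 is the smallest that 100000 permutations can give.

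**Figure D1:**
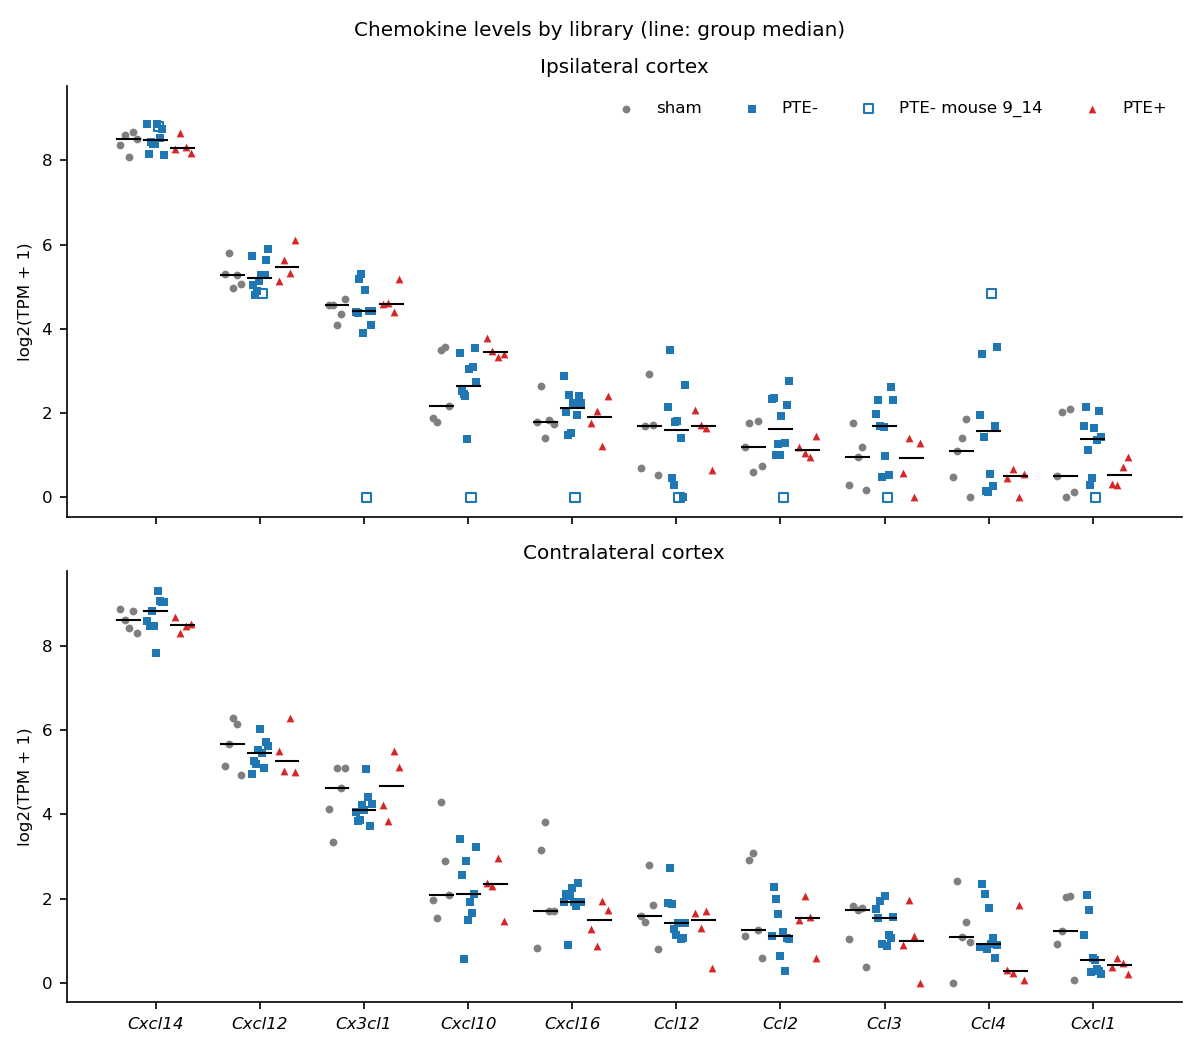
Level of each chemokine in every library, as log2(TPM + 1), in the ipsilateral (top) and contralateral (bottom) cortex of sham, PTE- and PTE+ mice; lines are group medians and the open symbol is ipsilateral PTE- mouse 9_14. Cxcl14 sits above every other gene, Cxcl10 of the 4 ipsilateral PTE+ libraries sits between 9.0 and 12.88 TPM, and groups overlap for every gene.

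A gene was called different at an unadjusted p under 0.05 with a fold change of at least 1.2, using limma on log2(TPM + 1) across all genes that exceeded 5 TPM in the mean of some compared group. At this threshold 0 of the members were called between CCI and sham mice in either hemisphere. In the ipsilateral cortex 4 members (Cxcl10, Cxcl12, Cxcl14 and Cx3cl1) were tested, and 1.62% of all tested genes were called. In the contralateral cortex 5 members (the same and Cxcl16) were tested, and 4.05% of all tested genes were called. Between PTE- and sham mice 0 of 5 tested members were called in each hemisphere, beside 1.54% of all genes ipsilaterally and 3.76% contralaterally. Between PTE+ and sham mice 1 of 4 members, Cxcl10, was called ipsilaterally, where 1.56% of genes were called, and 0 of 5 contralaterally, where 1.97% were called. For PTE+ against PTE-, 0 of 5 members were called ipsilaterally and 0 of 3 contralaterally, beside 0.573% and 2.79% of all genes. No gene, member or not, passed a Benjamini-Hochberg adjusted p of 0.05 in these 8 comparisons. These comparisons share libraries: the same 5 sham libraries per hemisphere stand in 3 of them and the same PTE+ libraries in 3. All 10 members, also those below the TPM limit, were tested singly by a two-sided exact permutation test in each comparison, and the adjusted p over these 80 tests was at least 0.935.

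**Figure D2:**
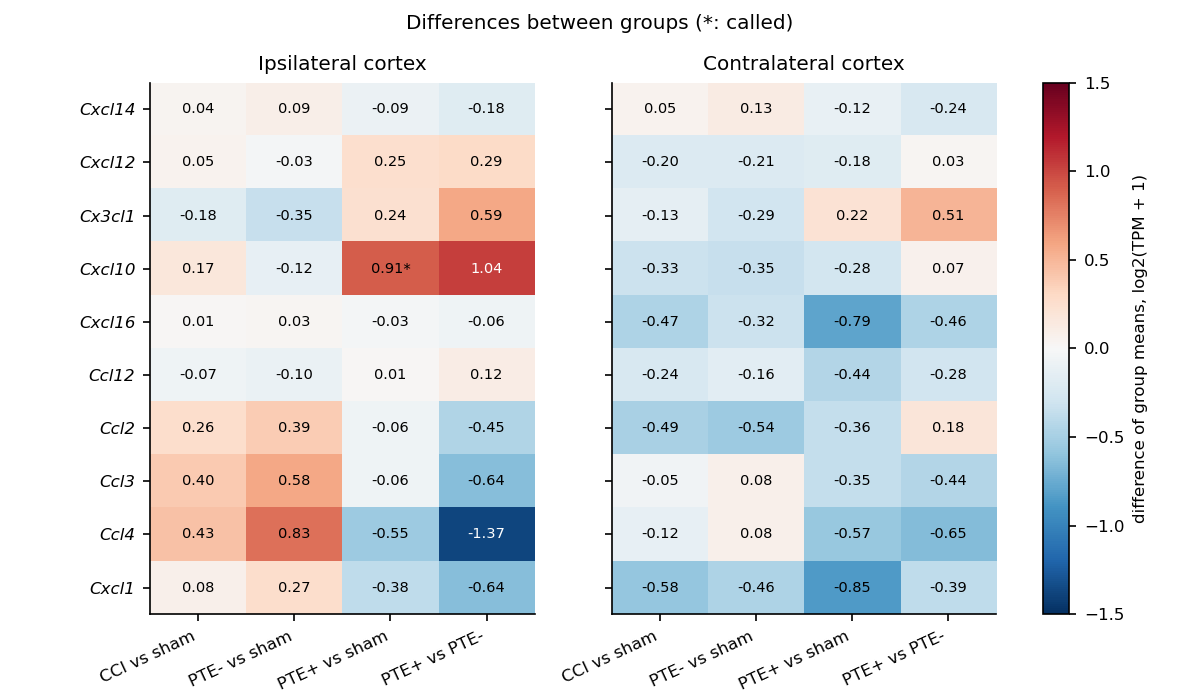
Difference of group means in log2(TPM + 1) for each chemokine (rows) and comparison (columns) in the ipsilateral (left) and contralateral (right) cortex; red is higher in the group named first, blue is lower, and the star marks a called gene. Only Cxcl10 in ipsilateral PTE+ against sham (0.91) carries a star.

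Cxcl10, the interferon-inducible ligand of Cxcr3 that draws T cells, had the largest positive ipsilateral difference of PTE+ mice from both other groups among the 10 members. Its level was 12.88, 10.17, 9.0 and 9.58 TPM in the 4 PTE+ libraries and 2.71, 2.47, 3.52, 10.39 and 10.86 TPM in the 5 sham libraries. In the 10 PTE- libraries the lowest was 0 TPM (mouse 9_14), the median 5.24 TPM and the highest 10.77 TPM. The 4 PTE+ libraries lay close together and all above the PTE- median, while sham fell into 3 low and 2 high libraries, so the groups overlapped. Against sham, Cxcl10 was called higher in PTE+ mice by 0.91 on the log2 scale (SE 0.398, limma p = 0.0411, adjusted p = 1), but the exact permutation test gave p = 0.127. Within prefix 8 this difference was 1.95 (1 against 2 libraries) and within prefix 9 it was 0.32 (3 against 3 libraries). The call was lost when any of the 4 PTE+ libraries, or sham 8_15, 8_16 or 9_9, was left out.

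Against PTE- mice, the difference in Cxcl10 was 1.04 on the log2 scale (SE 0.52, limma p = 0.0644, adjusted p = 0.977, exact permutation p = 0.0679). The library of mouse 9_14 bears on this value. Without it the PTE- libraries ranged from 1.62 to 10.77 TPM around a median of 5.68 TPM, and the difference was 0.76 (SE 0.313, limma p = 0.0273, adjusted p = 0.983, exact permutation p = 0.0462), which met the threshold for a call. With all libraries it was 1.09 within prefix 8 (1 against 4 libraries) and 1.10 within prefix 9 (3 against 6 libraries). The prefix 9 value includes mouse 9_14 at 0 TPM and is not given without it. The other PTE- libraries of prefix 9 had 1.62, 7.24, 7.48, 10.77 and 5.68 TPM. The median difference of all tested genes in this comparison was 0.12. Between PTE- and sham mice Cxcl10 differed by -0.12 (exact permutation p = 0.838), and by 0.15 without mouse 9_14 (exact permutation p = 0.716).

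In the contralateral cortex Cxcl10 did not show this order. The PTE+ libraries had 4.19, 3.91, 6.78 and 1.77 TPM and the sham libraries 2.91, 1.92, 3.23, 18.49 and 6.4 TPM. The PTE- libraries ranged from 0.49 to 9.69 TPM around a median of 3.34 TPM. The highest library of this hemisphere was thus that of sham mouse 9_10, which was also among the 2 high sham libraries ipsilaterally.

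The 17 mice with both hemispheres allowed a comparison within each mouse, set across 2 separately deposited tables. In PTE+ mice Cxcl10 had 12.88 TPM ipsilaterally and 4.19 TPM contralaterally in mouse 8_10, 10.17 and 6.78 TPM in mouse 9_17, and 9.0 and 1.77 TPM in mouse 9_18. It was higher on the injured side in 3 of 3 PTE+ mice, in 5 of 9 PTE- mice and in 3 of 5 sham mice. Over the 12 injured mice the ipsilateral level was higher by 0.72 on the log2 scale (SD 0.902, limma SE 0.23, limma p = 0.00671, adjusted p = 0.304, exact sign-flip permutation p = 0.0229). Cxcl10 was 1 of 4 tested members called here, beside 4.51% of all genes, and 22 of those genes passed an adjusted p of 0.05. Cxcl10 passed the 5 TPM limit only through its ipsilateral mean, so it could enter this test only where it was high on that side. Within prefix 8 the mean difference was 0.56 (higher in 3 of 5 mice), and within prefix 9 it was 0.83 (5 of 7 mice). In sham mice the difference was 0.03 (exact permutation p = 0.8125, where 0.0625 is the smallest that 5 mice allow), and 0 of 5 members were called beside 6.91% of all genes.

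The difference between injured and sham mice itself was 0.68 for Cxcl10 and was not called (limma SE 0.399, limma p = 0.103, exact permutation p = 0.139). In this interaction 0 of 5 members were called beside 6.5% of all genes. The hemisphere difference of PTE+ mice was 1.26 (SD 0.679, exact permutation p = 0.25, the smallest that 3 mice allow) and that of PTE- mice 0.53, and these differed by 0.73 (limma p = 0.175, exact permutation p = 0.232).

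Cx3cl1, the membrane-anchored ligand of the microglial receptor Cx3cr1, is made mainly by neurons. Its ipsilateral level was 23.01, 23.34, 20.01 and 35.24 TPM in PTE+ mice and 22.54, 22.72, 25.34, 16 and 19.33 TPM in sham mice. In PTE- mice it ranged from 13.99 to 38.56 TPM around a median of 20.48 TPM once mouse 9_14, listed at 0, was set aside. Contralaterally it was 17.56, 13.26, 44.42 and 33.93 TPM in PTE+ mice and 16.38, 9.06, 33.06, 33.28 and 23.60 TPM in sham mice, with 12.10 to 32.49 TPM in PTE- mice. The groups overlapped on both sides. The ipsilateral difference between PTE+ and PTE- mice was 0.59 (exact permutation p = 0.503) and 0.13 without mouse 9_14 (exact permutation p = 0.617), and that between PTE- and sham mice turned from -0.35 to 0.11 without it (exact permutation p = 0.65). The contralateral difference between PTE+ and PTE- mice was 0.51 (SE 0.285, limma p = 0.0956, exact permutation p = 0.145). In the same comparison the neuron score differed by 0.63 (exact permutation p = 0.269), and Stmn2, 1 of 8 tested neuronal markers, was called higher by 0.64 (limma p = 0.0491), beside 2.79% of all genes. Their part in Cx3cl1 was not tested.

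Within mice, Cx3cl1 was higher ipsilaterally in 1 of 3 PTE+ mice and in 7 of 9 PTE- mice. In PTE+ mice it had 23.01 TPM ipsilaterally and 17.56 TPM contralaterally in mouse 8_10, 23.34 and 44.42 TPM in mouse 9_17, and 20.01 and 33.93 TPM in mouse 9_18. The mean hemisphere difference was -0.42 in PTE+ and 0.40 in PTE- mice, and their difference of -0.82 was called (SE 0.327, limma p = 0.0241, adjusted p = 0.995, exact permutation p = 0.0545). This was 1 of 4 tested members, beside 3.09% of all genes. In the same comparison the 8 tested neuronal markers had a median difference of -0.61, beside 0.0002 over all tested genes, and 0 were called. Their part in this difference of Cx3cl1 was not tested. The name prefix moved with the hemisphere difference of Cx3cl1. All 7 injured and sham mice of prefix 8 had more Cx3cl1 ipsilaterally, and 3 of 10 mice of prefix 9 did. Within prefix 8 the mean was 0.37 in the single PTE+ mouse and 0.83 in 4 PTE- mice, and within prefix 9 it was -0.82 in 2 PTE+ mice and 0.05 in 5 PTE- mice. Without mouse 9_17 the difference was -0.58 (limma p = 0.148), and without mouse 9_18 it was -0.66 (limma p = 0.113).

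**Figure D3:**
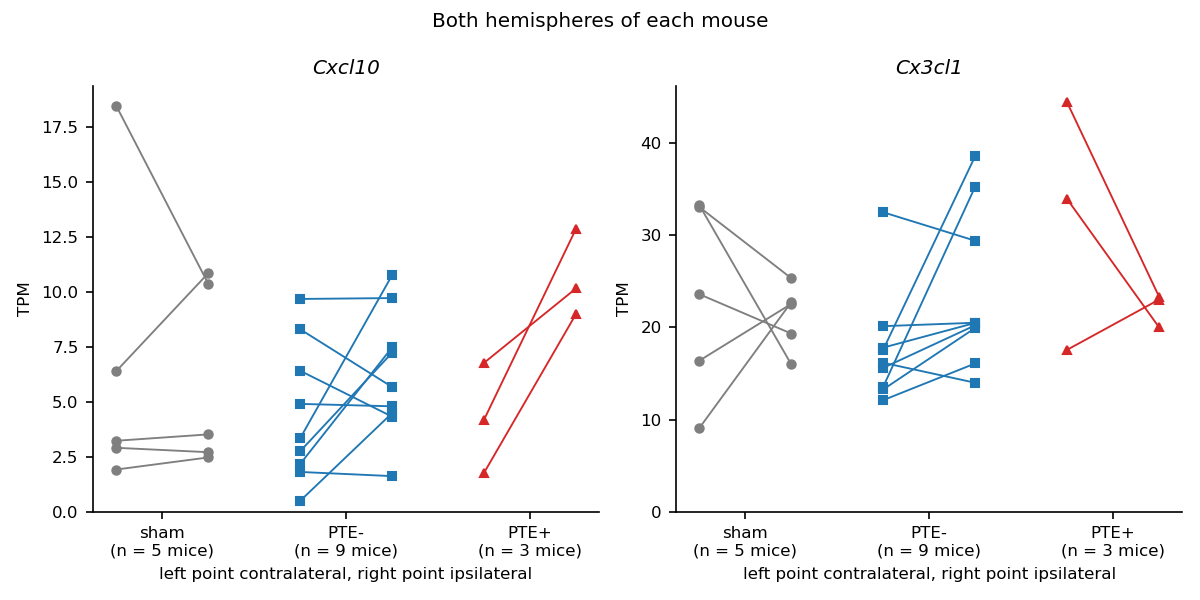
Cxcl10 (left) and Cx3cl1 (right) in TPM in both hemispheres of each mouse; each line joins the contralateral (left point) and ipsilateral (right point) value of 1 mouse. Cxcl10 is higher ipsilaterally in 3 of 3 PTE+ mice, and Cx3cl1 is lower ipsilaterally in mice 9_17 and 9_18.

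Ccl3 and Ccl4, which draw monocytes and T cells, are neighbouring genes on chromosome 11. In GRCm38, Ccl3 (ENSMUSG00000000982) lies at chr11:83647844-83649355 on the minus strand and Ccl4 (ENSMUSG00000018930) at chr11:83662584-83664683 on the plus strand, with 13228 bases between them. Ccl4 had 0.38, 0.61, 0 and 0.47 TPM in the ipsilateral PTE+ libraries and 0.40, 1.16, 0, 1.67 and 2.61 TPM in the sham libraries. The 10 PTE- libraries ranged from 0.09 to 27.49 TPM around a median of 1.985 TPM, and the highest was mouse 9_14, followed by 10.84 TPM in mouse 9_20 and 9.55 TPM in mouse 8_13. All 4 PTE+ libraries lay below the PTE- median, but inside the PTE- range or at 0.

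The difference in Ccl4 between PTE+ and PTE- mice was -1.37 (SE 0.783, limma p = 0.0995, adjusted p = 0.977, exact permutation p = 0.127) and -1.04 without mouse 9_14 (exact permutation p = 0.165). Ccl4 entered the test of all genes through that library alone, since the PTE- mean was 5.56 TPM with it and 3.12 TPM without it. Against sham, PTE- mice differed by 0.83 (exact permutation p = 0.32), or by 0.49 without mouse 9_14 (exact permutation p = 0.466), and PTE+ mice by -0.55 (exact permutation p = 0.23). Contralaterally the PTE+ libraries had 0.23, 0.18, 2.62 and 0.04 TPM, the sham libraries 0, 4.34, 0.95, 1.12 and 1.74 TPM, and the PTE- libraries 0.51 to 4.07 TPM.

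Ccl3 was low in all groups. It had 0.49, 1.68, 0 and 1.44 TPM in the ipsilateral PTE+ libraries, 0.23, 2.41, 0.14, 0.95 and 1.29 TPM in the sham libraries, and 0 to 5.19 TPM with a median of 2.235 TPM in the PTE- libraries. The PTE+ libraries again all lay below the PTE- median, and the difference was -0.64 (exact permutation p = 0.225) or -0.80 without mouse 9_14 (exact permutation p = 0.109). In sham mice Ccl3 was lower ipsilaterally in 5 of 5 mice, by a mean of -0.46 (SD 0.328, exact permutation p = 0.0625, the smallest possible), and in injured mice it was higher ipsilaterally in 6 of 12. Across the 17 mice its 2 hemispheres correlated with r = 0.655, beside a median of 0.466 over 10412 genes, while for Ccl4 the value was 0.33.

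To relate Ccl3 and Ccl4 to microglia, a score was taken as the mean log2(TPM + 1) of 16 microglial markers, among them Cx3cr1, P2ry12 and Trem2. These markers were present: their summed level was 136 to 1108 TPM in ipsilateral sham, 120 to 618 TPM in PTE- and 189 to 446 TPM in PTE+ libraries, and 170 to 881, 218 to 488 and 231 to 532 TPM contralaterally. The lowest sum was that of mouse 9_14, which listed 10 of the 16 markers at 0. In bulk RNA, fewer cells of a type and less RNA per cell cannot be told apart. Between PTE+ and PTE- mice the ipsilateral score differed by -0.18 (exact permutation p = 0.791), or -0.49 without mouse 9_14 (exact permutation p = 0.178). Of the 13 or 14 markers tested per comparison 1, Trem2, was called in any of the 4 comparisons per hemisphere. It was 0.73 higher in contralateral CCI against sham (limma p = 0.0465), where 4.05% of all tested genes were called.

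Neither Ccl3 nor Ccl4 correlated with the microglia score at a permutation p under 0.05 in either hemisphere. For Ccl3 Pearson's r was 0.345 ipsilaterally (n = 19, permutation p = 0.15; Spearman's rho 0.366, p = 0.124) and -0.207 contralaterally (n = 18, permutation p = 0.408; rho -0.286, p = 0.249). Without the 2 libraries farthest from the median score, r was 0.203 and -0.31. Within prefix 8 and prefix 9 it was 0.549 and 0.279 ipsilaterally and -0.108 and -0.147 contralaterally. For Ccl4 r was -0.22 ipsilaterally (n = 19, permutation p = 0.362; rho 0.129, p = 0.595) and 0.0513 contralaterally (n = 18, permutation p = 0.838; rho 0.137, p = 0.584). The sign for ipsilateral Ccl4 rested on mouse 9_14, without which r was 0.293, and without the 2 farthest libraries r was 0.478 ipsilaterally and 0.14 contralaterally. Within prefixes 8 and 9 it was 0.495 and -0.382 ipsilaterally and 0.119 and 0.0461 contralaterally. The ipsilateral prefix 9 values of both genes include mouse 9_14 and are not given without it. The sign of -0.382 thus cannot be set against that of prefix 8. These were 4 of 180 relations computed between members and scores, and their adjusted p was at least 0.51.

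The mice at the ends of the score were singled out after their values were seen, so they are examples and not a test. Sham mouse 9_10 had the highest microglia score on both sides (5.52 and 5.29, with 1107.69 and 880.83 TPM summed) but 0.95 and 2.33 TPM of Ccl3 and 1.67 and 1.12 TPM of Ccl4. Sham mouse 9_11 had the lowest score contralaterally (2.53) and the second lowest ipsilaterally (1.96), with more Ccl3 on both sides (1.29 and 2.41 TPM) and more Ccl4 (2.61 and 1.74 TPM). Mouse 9_14 had the lowest ipsilateral score (0.99) and the highest Ccl4 of all libraries, but this library listed 10 of the 16 markers at 0.

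**Figure D4:**
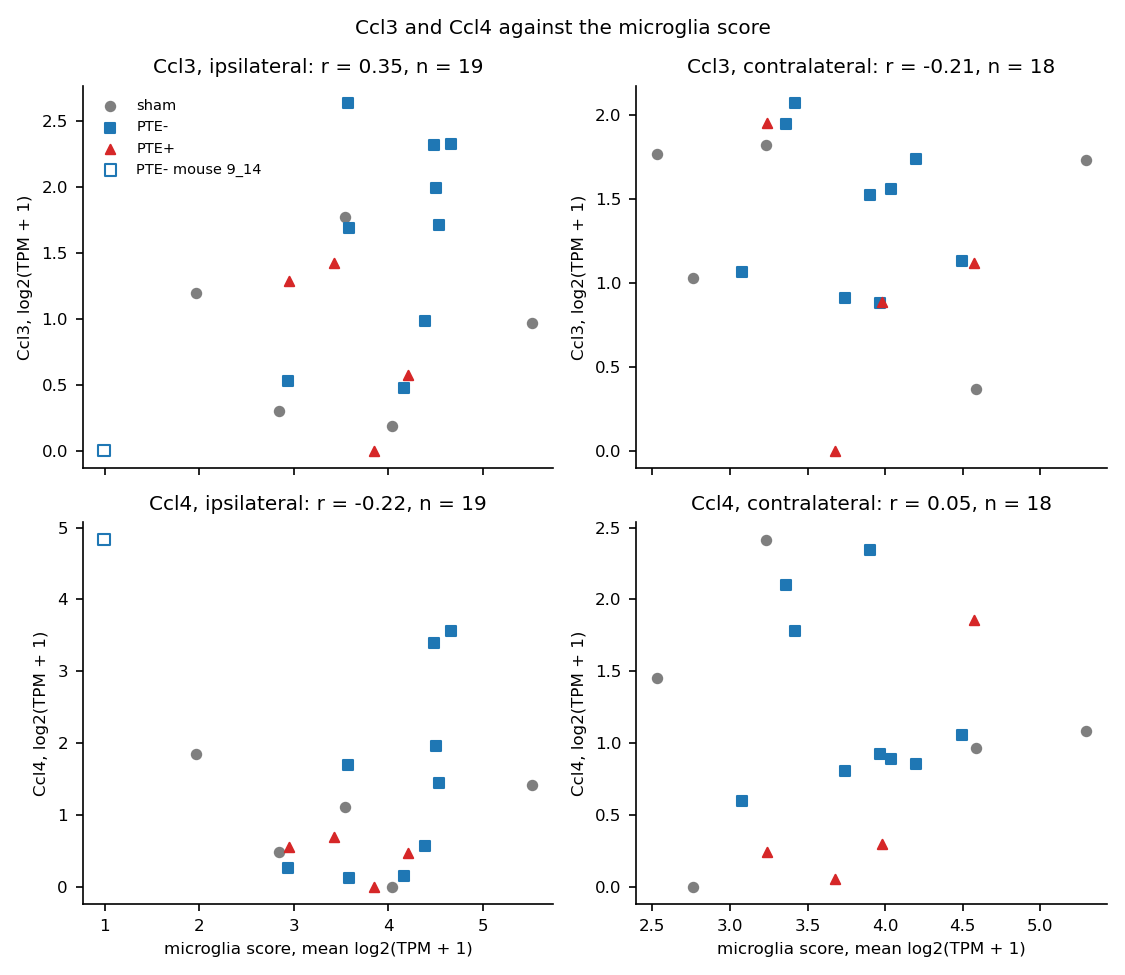
Ccl3 (top) and Ccl4 (bottom) in log2(TPM + 1) against the microglia score, the mean log2(TPM + 1) of the markers, in the ipsilateral (left) and contralateral (right) cortex; each point is 1 library and the open square is PTE- mouse 9_14. Points scatter widely in all panels, with r from -0.22 to 0.35, and the open square combines the lowest score with the highest Ccl4.

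Ccl2 and Ccl12 are ligands of Ccr2, the receptor of inflammatory monocytes. Ccl2 had 1.28, 1.08, 0.94 and 1.77 TPM in the ipsilateral PTE+ libraries, 1.28, 2.43, 0.69, 0.51 and 2.54 TPM in the sham libraries, and 0 to 5.79 TPM with a median of 2.135 TPM in the PTE- libraries. All PTE+ libraries lay below the PTE- median, with a difference of -0.45 (exact permutation p = 0.336). Contralaterally the highest Ccl2 was in sham mice 8_16 (6.52 TPM) and 9_10 (7.40 TPM), and the PTE+ libraries had 1.80, 3.20, 1.97 and 0.50 TPM. Ccl12 had 3.18, 2.28, 2.16 and 0.58 TPM in the ipsilateral PTE+ libraries, and the difference of PTE+ from PTE- libraries was 0.12 (exact permutation p = 0.836), or -0.04 without mouse 9_14 (exact permutation p = 0.948). The 2 hemispheres of a mouse correlated with r = 0.578 for Ccl12 and -0.015 for Ccl2.

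Cxcl1, a ligand of Cxcr2 that draws neutrophils, was low throughout. It had 0.25, 0.22, 0.66 and 0.96 TPM in the ipsilateral PTE+ libraries, 0.43, 3.10, 0.10, 0 and 3.26 TPM in the sham libraries, and 0 to 3.45 TPM with a median of 1.625 TPM in the PTE- libraries. The PTE+ libraries lay below the PTE- median and differed by -0.64 from PTE- mice (exact permutation p = 0.124), or by -0.78 without mouse 9_14 (exact permutation p = 0.0476). Contralaterally PTE+ mice, with 0.29, 0.51, 0.38 and 0.16 TPM, differed by -0.85 from sham mice, with 0.88, 1.33, 0.05, 3.08 and 3.14 TPM (exact permutation p = 0.103).

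Cxcl12, the ligand of Cxcr4 and Ackr3, and Cxcl14 were the most abundant members. Cxcl12 had 33.97, 48.27, 38.80 and 68.02 TPM in the ipsilateral PTE+ libraries, 38.69, 54.91, 32.44, 30.53 and 38.04 TPM in the sham libraries, and 27.15 to 58.41 TPM with a median of 35.94 TPM in the PTE- libraries. Cxcl14 had 308.43, 399.99, 318.17 and 286.46 TPM in the PTE+ libraries, 329.56, 386.75, 362.83, 269.08 and 403.37 TPM in the sham libraries, and 279.10 to 462.59 TPM in the PTE- libraries. The groups overlapped, and PTE+ and PTE- mice differed by 0.29 for Cxcl12 (exact permutation p = 0.237) and -0.18 for Cxcl14 (exact permutation p = 0.264). Both genes were also well measured in mouse 9_14, at 27.54 TPM for Cxcl12. Contralaterally Cxcl14 ranged from 225.38 to 628.11 TPM, both in PTE- mice.

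Cxcl16, a transmembrane ligand of Cxcr6, had 2.4, 3.13, 1.33 and 4.28 TPM in the ipsilateral PTE+ libraries, 2.48, 5.25, 2.35, 1.67 and 2.57 TPM in the sham libraries, and 0 to 6.36 TPM in the PTE- libraries. No group stood apart, and PTE+ and PTE- mice differed by -0.06 (exact permutation p = 0.895), or by -0.27 without mouse 9_14, the library at 0 (exact permutation p = 0.334). Contralaterally sham mice had 0.77, 7.84, 2.25, 13.06 and 2.28 TPM, and the values of 8_16 and 9_10 were the highest of the hemisphere. PTE+ mice had 1.41, 0.83, 2.85 and 2.31 TPM, -0.46 against PTE- mice (exact permutation p = 0.0993).

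The genes of the surrounding pathway were described from lists. Of 28 other chemokine ligands 5 were tested in each comparison, among them Ccl27a (60.2 to 156 TPM ipsilaterally), Ccl19 (0 to 94.4 TPM) and Ccl25. Of these 1, the platelet and macrophage chemokine Pf4, was called: it was higher in contralateral PTE+ mice by 0.80 against PTE- mice (SE 0.319, limma p = 0.023, adjusted p = 0.999) and by 0.77 against sham mice (limma p = 0.0416). In these comparisons 2.79% and 1.97% of all genes were called. Pf4 is also 1 of 8 genes of the border macrophage list. Of 23 chemokine receptors 4 were tested (Cxcr4, Cx3cr1, Ackr3 and Ccrl2), and none was called between groups. The scavenging receptor Ackr3 was the most abundant of them, at 18.6 to 62.5 TPM ipsilaterally. Cxcr4, the signalling receptor of Cxcl12, was higher ipsilaterally than contralaterally in injured mice by 0.53 (SE 0.225, limma p = 0.0328, adjusted p = 0.48). This was 1 of 4 tested receptors, beside 4.51% of all genes. Of 5 proteases that process chemokines 2 or 3 were tested, and Mmp2, which cleaves several of them, was called higher in ipsilateral PTE+ than sham mice by 1.23 (SE 0.466, limma p = 0.0221, adjusted p = 1). Mmp2 passed the limit of 5 TPM only through the PTE+ mean, so it could enter the test only where it was high in PTE+ mice. It ranged from 2 to 12.25 TPM in PTE+ and from 0.38 to 2.96 TPM in sham libraries, which overlap. Adam10 and Adam17, which shed Cx3cl1 and Cxcl16, were not called.

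Of 16 genes of the interferon response, 14 or 15 were tested and 0 were called by limma in any of the 12 comparisons. Their median difference between ipsilateral PTE+ and PTE- mice was 0.34, beside 0.12 over all tested genes, and that between PTE+ and sham mice was 0.34, beside 0.09. Of 14 NF-kB targets and inflammatory cytokines 6 were tested and 0 were called between groups. Icam1, an adhesion molecule for leukocytes, was higher ipsilaterally in injured mice by 0.50 (limma p = 0.0172). It was lower ipsilaterally in sham mice, with a difference of -0.62 (limma p = 0.0403). The called difference between them was 1.12 (limma p = 0.0047, adjusted p = 0.569). In injured mice Relb was also called, higher ipsilaterally by 0.30 (limma p = 0.00873), which made 2 of 6 beside 4.51% of all genes. In sham mice it was 1 of 6 beside 6.91%, and for the difference 1 of 6 beside 6.5%.

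Some genes of the immediate early and dissociation list were lower in ipsilateral PTE+ libraries. Its summed level was 398 to 565 TPM in ipsilateral PTE+ libraries, 441 to 1763 TPM in PTE- libraries and 520 to 1820 TPM in sham libraries. For PTE+ against PTE-, 6 of 14 tested genes were called, also without mouse 9_14, beside 0.573% of all genes. All were lower, among them Fos with a difference of -1.78 (SE 0.56, limma p = 0.0062, adjusted p = 0.977), Hspa1a with -1.55 and Egr1 with -1.31. Between PTE+ and sham mice 9 of 14 were called, all lower, beside 1.56% of all genes. The score of PTE+ libraries was -0.73 relative to that of PTE- libraries (exact permutation p = 0.034, adjusted p = 0.978 over 112 tests). Contralaterally limma called 0 of 15 tested genes in either comparison (2.79% and 1.97% of all genes were called), and the score differed by -0.33 from PTE- mice (exact permutation p = 0.592) and by -0.69 from sham mice (exact permutation p = 0.27). The ipsilateral PTE+ libraries were also those in which Ccl2, Ccl3, Ccl4 and Cxcl1 lay below the PTE- median, whereas Cxcl10 lay above it. The other members had PTE+ libraries on both sides of it. The share of all genes with such a pattern in 4 libraries is not given. Contralaterally the pattern was not complete. There 3 of 4 PTE+ libraries lay above the PTE- median for Ccl2 and Cxcl10, and 1 of 4 for Ccl3, Ccl4 and Cxcl1. The part of the immediate early genes in the values of these chemokines was not tested.

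Across libraries, 1 relation of a member with a cell type score had an adjusted p under 0.05 in both hemispheres. Cxcl12 followed the mural and fibroblast score with r = 0.754 ipsilaterally (n = 19, permutation p = 0.00025, adjusted p = 0.015, rho 0.781) and r = 0.903 contralaterally (n = 18, permutation p = 2e-05, adjusted p = 0.0018, rho 0.907). Without the 2 libraries farthest from the median score r was 0.71 and 0.866. Within prefixes 8 and 9 it was 0.926 and 0.797 ipsilaterally and 0.62 and 0.929 contralaterally. The 10 markers of this list are those of pericytes, smooth muscle cells and fibroblasts, and their score moved with Cxcl12. Their part in its level was not tested.

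Other relations, singled out after their values were seen, passed in 1 hemisphere. Cx3cl1 followed the neuron score with r = 0.769 ipsilaterally (n = 19, permutation p = 1e-05, adjusted p = 0.0018, rho 0.83), with r = 0.764 without mouse 9_14, and with r = 0.654 contralaterally (n = 18, permutation p = 0.00315, adjusted p = 0.081). Cxcl1 followed the immediate early score with r = 0.771 contralaterally (n = 18, permutation p = 0.00059, adjusted p = 0.0265) and r = 0.66 ipsilaterally (n = 19, permutation p = 0.00271). For the same score r was 0.485 and 0.613 for Ccl3 and 0.563 and 0.616 for Ccl4 in the ipsilateral and contralateral cortex. These values of Ccl3 and Ccl4 are given without a test and are not put forward as relations that passed. Whether these values differ from those with the microglia score was not tested.

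**Figure D5:**
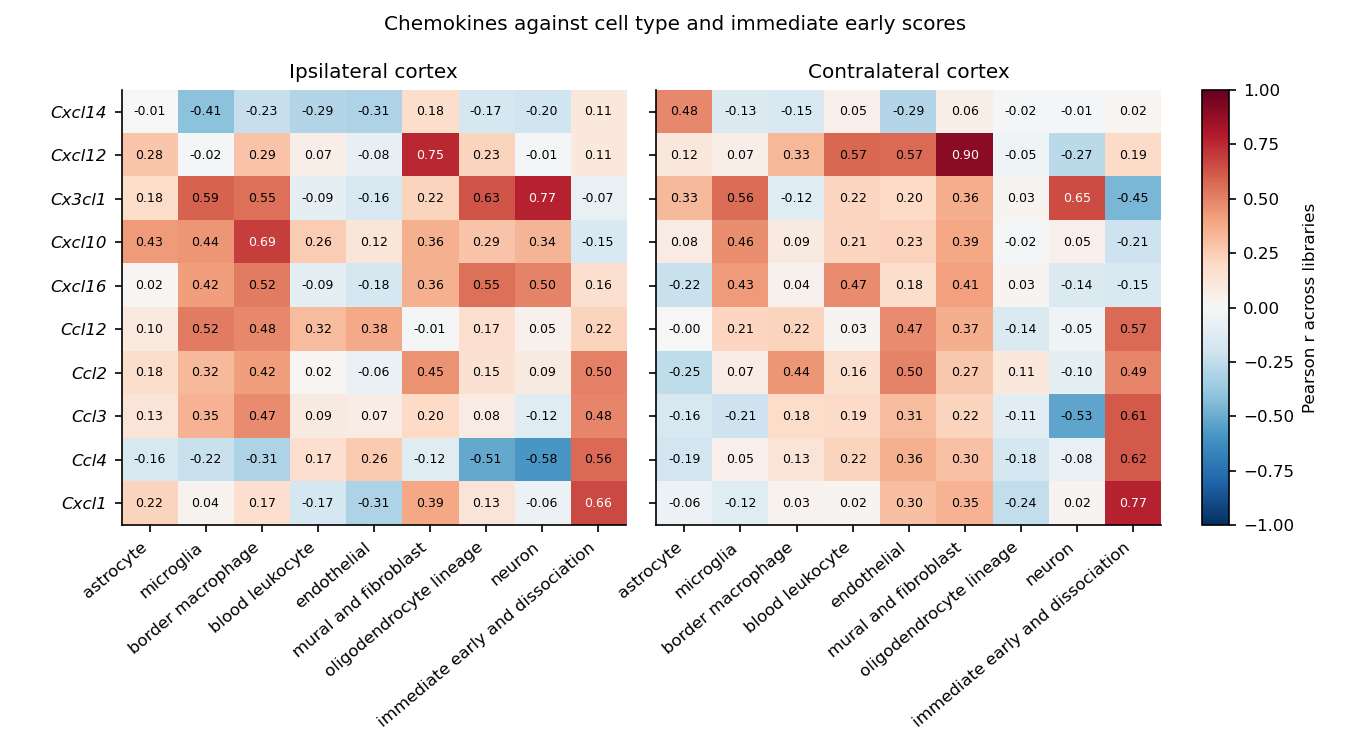
Pearson's r across libraries between each chemokine (rows) and the mean log2(TPM + 1) score of each marker list (columns), in 19 ipsilateral (left) and 18 contralateral (right) libraries. Cxcl12 with the mural and fibroblast score (0.754 and 0.903) and Cx3cl1 with the neuron score (0.769 and 0.654) are among the highest values.

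The members also varied with each other. Ccl2 and Cxcl1 correlated with r = 0.825 over the ipsilateral and 0.632 over the contralateral libraries. Ccl3 and Ccl4 correlated with r = 0.335 ipsilaterally, 0.762 without mouse 9_14 and 0.522 contralaterally. Cxcl12 and Cxcl16 correlated with r = 0.633 and 0.565. These values describe libraries that also share dissociation and preparation.

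The genes most like each member with a mean above 5 TPM were ranked among 10412 genes by the lower r of both hemispheres. Those nearest to Cxcl12 were Ggnbp2 (0.747 ipsilaterally and 0.745 contralaterally), the collagen-binding proteoglycan gene Lum (0.713 and 0.847), Srp54a, Colec12 and Col1a2 (0.65 and 0.784), a collagen chain. Those nearest to Cx3cl1 were Synpo (0.909 and 0.892), an actin-associated protein gene of dendritic spines, Tacc2, Ppp1r13b, Rprm and Strn4. The nearest to Ccl4 was Ppp1r15a (0.764 and 0.661), a gene of the cellular stress response, followed by Rgs19, Smc6, Bgn and Efemp2. Without mouse 9_14 they were Smc6 and 4 stress-inducible genes, Dusp1, Ier2, Ier3 and Cebpb.

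Cxcl10 was most like Flvcr1 (0.731 and 0.724), Tmem35b, Slc35a1, Cab39 and Mfsd1, and none of these belongs to the interferon list. Cxcl14 was most like Hnrnpa0 (0.842 and 0.78), Snrpc, Ndufb1-ps, Hsd17b11 and Msrb1. Cxcl16 was most like Rnase4 (0.721 and 0.74), Bend5, Ifitm10, Gbp2 and Timp1. Ccl3 and Cxcl1 lay below the limit of the rule, and their nearest genes were looked up after the values were seen. They were Zfp36 for Ccl3 (0.755 and 0.740) and Socs3 for Cxcl1 (0.78 and 0.748), both inducible feedback regulators of inflammatory signalling.

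The remaining members lie on 5 chromosomes in GRCm38. Ccl2 (ENSMUSG00000035385) lies at chr11:82035571-82037453 and Ccl12 (ENSMUSG00000035352) at chr11:82101845-82103400, both on the plus strand. Cxcl16 (ENSMUSG00000018920) lies at chr11:70453983-70459984 on the minus strand. Cxcl1 (ENSMUSG00000029380) lies at chr5:90891241-90893115 on the plus strand and Cxcl10 (ENSMUSG00000034855) at chr5:92346638-92348889 on the minus strand. Cxcl12 (ENSMUSG00000061353) lies at chr6:117168535-117181367 on the plus strand, Cxcl14 (ENSMUSG00000021508) at chr13:56288643-56296551 on the minus strand and Cx3cl1 (ENSMUSG00000031778) at chr8:94772009-94782427 on the plus strand.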

How the data were processed

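The authors trimmed reads with Trim Galore 0.6.4, mapped them to mm10 with Bowtie2 2.4.1 and estimated expression with RSEM 1.2.28. The deposited TPM values, 1 table per hemisphere, were used as they stand. The authors compared raw counts with DESeq2 1.36.0, and those counts were not used here. Depth per library cannot be derived from TPM.

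Symbols and positions came from a GRCm38 annotation, which gave symbols to 21856 identifiers and none to 119. Groups were compared on log2(TPM + 1), a scale that understates changes of low genes, with limma 3.58.1 in R 4.3.3 (variance trend on expression), in genes above 5 TPM in the mean of at least 1 compared group. Single genes and scores were tested two-sided by exact permutation over libraries, and correlations with 100000 permutations (Python 3.11.15, scipy 1.17.1). List scores used genes with a mean above 1 TPM. Hemispheres were compared with the mouse as a block, since the labels give both libraries of a mouse. The median correlation of their deviations was 0.407, and it was over 0.1 in 16 of 17 mice.

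The members, the 14 lists and the tests were chosen with earlier results of these data known. Named are the 10 members, list genes above 5 TPM or called (at most 5 per list and comparison), and the 5 genes nearest to each member above 5 TPM. The fits were tested on simulated data.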

Additional observations from a re-analysis of the deposited data

Results flagged for a closer look

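In 60 groups of libraries tested for a value far from the others, 5 were found, where chance gives about 1 in 20. Contralateral Ccl4 was 2.62 TPM in PTE+ mouse 9_17 and 0.04 to 0.23 TPM in the other 3 PTE+ libraries. Contralateral Ccl12 was 5.61 TPM in PTE- mouse 8_13 and 1.04 to 2.7 TPM in the others. Ipsilateral Cx3cl1 and Cxcl16 were listed at 0 in PTE- mouse 9_14, against 13.99 to 38.56 TPM and 1.81 to 6.36 TPM in the other 9 PTE- libraries. Contralateral Cxcl16 was 0.85 TPM in PTE- mouse 8_14 and 2.53 to 4.16 TPM in the others.

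The hemisphere difference of Cx3cl1 differed between PTE+ and PTE- mice by -0.82 on the log2 scale in the test of the difference itself (limma p = 0.0241, adjusted p = 0.995). The 8 tested neuronal markers had a median of -0.61 in the same comparison.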

How the results depend on the processing

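Of the counts of called members and the 4 relations of Ccl3 and Ccl4 with microglia, 189 values under alternatives were unchanged in call or direction, 25 moved and 4 reversed. Of the values of single members, 670 kept their call, 8 passed the threshold anew and 13 lost it. The cause was not tested.

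For ipsilateral PTE+ against PTE-, the count of 0 became 1 (Cxcl10) with quantile normalization (0.64, limma p = 0.0317), with array weights (0.78, limma p = 0.017) and without PTE- mouse 9_14. For ipsilateral PTE+ against sham, the count of 1 became 0 with no TPM filter, in a fit of all 3 groups, with the name prefix as a covariate and at an adjusted p, and it ranged from 0 to 1 when single libraries were left out. Contralaterally the counts ranged from 0 to 1 without single libraries: Cxcl16 was called in CCI against sham without sham 8_15 (-0.82, limma p = 0.0313), Cx3cl1 in PTE+ against PTE- without PTE+ 8_17 (0.79, limma p = 0.0137) and Cx3cl1 in PTE- against sham without sham 8_16 (-0.57, limma p = 0.0279). Cxcl16 passed the 5 TPM limit only through the sham mean (5.24 TPM with all libraries, beside 2.58 TPM in CCI). It could thus enter that test only where it was high in sham mice. With the prefix as a covariate the count for PTE+ against PTE- became 1 (Cx3cl1, 0.54, limma p = 0.0389).

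Between hemispheres, the count in injured mice rose from 1 to 2 (Cxcl1 and Cxcl10) with no TPM filter or a filter at 1 TPM. In sham mice it rose from 0 to 1 (Ccl3) with no TPM filter. For injured minus sham mice it ranged from 0 to 1 (Cxcl16 without sham 8_15, 0.85, limma p = 0.0367). There too Cxcl16 passed the limit only through its contralateral sham mean. For PTE+ minus PTE- mice the count ranged from 0 to 1 without single mice and became 0 with no replicate block (Cx3cl1, -0.82, limma p = 0.0509). Leaving out the block changed no other call of a member.

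The relation of Ccl4 with microglia reversed from -0.22 to 0.293 ipsilaterally without mouse 9_14, and without other single libraries it reached -0.256. Contralaterally it ranged from -0.0922 to 0.156 without single libraries, around 0.0513 with all, and was negative without PTE+ 8_17, PTE+ 9_17 or sham 8_15. Quantile normalization moved the median difference of all genes between ipsilateral PTE+ and PTE- mice from 0.12 to 0.01, and the calls from 34 higher and 26 lower to 45 and 90. Ccl2, Ccl3, Ccl4, Ccl12 and Cxcl1 had medians of at most 2.22 TPM in both hemispheres, where TPM without depth cannot separate counting error from other spread.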
